A study of Mus musculus with 10 samples.

Results

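The 9 genes described here encode transcription factors of the macrophage lineage: Spi1, Irf8, Irf5, Cebpa, Cebpb, Cebpd, Maf, Runx1 and Nr1h3. They were chosen by name and not by a rule on their values, although earlier results of these data were known. All 9 were listed among 23202 genes in the table of sorted tumor macrophages and among 19720 genes in the table of whole mammary tumors. RNA sequencing covered 10 libraries from 6 mice. All mice were B6 animals of 15 weeks carrying MMTV-PyMT, which expresses a viral oncogene from a promoter of the mammary epithelium, together with floxed alleles of Cxcr4 (Cxcr4fl/fl), the receptor of the chemokine CXCL12. In the group called cKO here the mice also carried LysmCre, a Cre recombinase under a promoter active in macrophages, monocytes and neutrophils, so the label stands for a myeloid and not a strictly macrophage deletion. Controls were littermates without Cre. Sorted macrophages, taken from digested tumors by F4/80 and CD11b staining, came from 3 cKO mice (725, 746 and 867) and 3 controls (706, 720 and 775). Frozen whole tumors came from 2 of these cKO mice (725 and 746) and 2 of these controls (706 and 720). Each library of a table was from another mouse. The study asked what loss of Cxcr4 in macrophages does to the macrophages and to the tumor.

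PU.1, the ETS factor encoded by Spi1, is the master regulator of the myeloid lineage, and the C/EBP factors cooperate with it at macrophage enhancers. IRF8 pairs with PU.1 at composite sites and guides the choice between monocyte and granulocyte fates, while IRF5 drives inflammatory cytokine genes downstream of Toll-like receptors. C/EBPα acts early in myeloid commitment, and C/EBPβ and C/EBPδ are its inducible relatives in inflamed macrophages, with further roles in epithelium and fibroblasts. c-MAF supports resident-type and anti-inflammatory macrophage programs, RUNX1 acts in blood stem cells and in mammary epithelium as well as in myeloid cells, and Nr1h3 encodes LXRα, a nuclear receptor for oxysterols that controls cholesterol export.

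By gene identifier in the GENCODE vM21 annotation (GRCm38), the genes lie on 5 chromosomes. Spi1 (ENSMUSG00000002111) lies at chr2:91082390-91115756 on the plus strand, and Nr1h3 (ENSMUSG00000002108) lies 68304 bases farther on, at chr2:91184061-91202834 on the minus strand. Cebpb (ENSMUSG00000056501) is on the same chromosome at chr2:167688915-167690418, plus strand. Irf8 (ENSMUSG00000041515, chr8:120736358-120756694, plus) and Maf (ENSMUSG00000055435, chr8:115682942-115707794, minus) share chromosome 8. Cebpd (ENSMUSG00000071637, chr16:15887286-15891031, plus) and Runx1 (ENSMUSG00000022952, chr16:92601466-92826149, minus) share chromosome 16. Irf5 (ENSMUSG00000029771) lies at chr6:29526625-29541871 and Cebpa (ENSMUSG00000034957) at chr7:35119293-35121928, both on the plus strand. The C/EBP genes each form 1 exonic block, and Runx1 has the longest exonic sequence of the 9, with 12025 bases. Genes on the opposite strand share exonic bases with 3 members to a degree that matters for counting: 20.7% of those of Cebpb with Peds1, 15.0% of those of Cebpd with Spidr and 14.1% of those of Irf5 with Tnpo3. The use of strand in the counting is not given in the sources used here, so reads of these partners cannot be told apart there.

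The RefSeq promoter table (GRCm38.p6) held 6 of the 9 members. Below are the 250 bases upstream of the start for Irf8 and Cebpa, both of which stood far above whole tumor in the sorted cells, and for the downstream start of Runx1, which was within 2-fold of the sorted cells in whole tumor. Capitals mark matches, on either strand, to any of 6 motifs searched. The motif of PU.1 was GAGGAA, which 23.3% of the 32851 promoter windows of this length in the table hold, and that of the C/EBP factors was TTGCNNAA, held by 9.56%. The IRF motif was GAAA repeated after a gap of 2 bases (2.98% of windows). The RUNX motif was taken as TGTGGT (14.0% of windows). For the core of a cAMP response element the letters were TGACGT, found in 6.47% of windows. The TATA box was searched as TATAAA, found in 12.4%.
Irf8, chr8:120736108-120736357, plus strand: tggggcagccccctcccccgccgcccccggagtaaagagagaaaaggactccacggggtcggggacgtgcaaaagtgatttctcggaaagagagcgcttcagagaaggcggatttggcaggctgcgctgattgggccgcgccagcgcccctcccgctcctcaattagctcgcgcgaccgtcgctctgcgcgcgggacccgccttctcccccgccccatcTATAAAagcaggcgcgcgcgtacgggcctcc
Cebpa, chr7:35119043-35119292, plus strand: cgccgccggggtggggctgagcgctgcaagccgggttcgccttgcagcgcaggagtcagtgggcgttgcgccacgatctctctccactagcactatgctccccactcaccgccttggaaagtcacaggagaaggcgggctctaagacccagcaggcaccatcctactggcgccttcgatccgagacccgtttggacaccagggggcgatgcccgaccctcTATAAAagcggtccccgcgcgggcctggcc
Runx1, chr16:92697330-92697579, minus strand: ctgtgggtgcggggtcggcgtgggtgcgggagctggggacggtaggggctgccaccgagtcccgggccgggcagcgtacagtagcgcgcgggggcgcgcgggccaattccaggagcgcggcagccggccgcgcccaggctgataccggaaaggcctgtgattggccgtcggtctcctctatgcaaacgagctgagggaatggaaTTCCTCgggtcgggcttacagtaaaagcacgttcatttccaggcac
The Irf8 window holds a TATA match at 31 to 26 bases before the start. Cebpa has a TATA match at 30 to 25 bases before its start. The Runx1 window has a match to the PU.1 motif (TTCCTC, its reverse complement) at 46 to 41 bases. None of the printed matches overlap each other. The C/EBP, IRF, RUNX and cAMP response motifs have no match in the 3 windows. A match is a run of letters, not a measured binding site.

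Levels are given in CPM, counts scaled so that each library sums to 1e+06. Inferred depth was 14.4 to 25.2 M reads (M, 1e+06) in sorted libraries and 34.2 to 53.4 M reads in tumors, so a gene listed at 0 may stand for up to 0.119 to 0.208 CPM and 0.0562 to 0.0878 CPM (3 reads, counting error only). The sorted libraries held macrophage markers (summed over 15 genes, 1119.5 to 3088 CPM, against 114 to 139 CPM in tumors), although Lyz2, whose promoter drives LysmCre, was at 0.134 to 7.31 CPM. They also held epithelial markers (10 genes) at 3226 to 7111 CPM, a range that overlaps the 5398 to 7480 CPM of the tumors. Fibroblast and endothelial markers (6 genes each) were highest in the library of cKO 867, at 1165 and 286 CPM, and next in that of control 775, at 422 and 105 CPM. The targeted gene, Cxcr4, was not lower in libraries labelled cKO, with log2 differences of 0.21 (SE 0.59) in sorted cells and 0.72 (SE 0.29) in tumors (limma adjusted p = 0.9998 and 0.819). Directions below are therefore those of libraries labelled cKO.

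In sorted macrophages the C/EBP factors and Runx1 were the most abundant of the 9 transcripts per length, and Spi1 and Nr1h3 the least. Per kilobase of exonic sequence, Cebpb held 106 ± 19.5 CPM, Runx1 42.0 ± 11.2, Cebpa 28.8 ± 14.4 and Cebpd 23.4 ± 6.85 (SD, n = 6 libraries). Irf5 followed at 13.4 ± 3.83, Maf at 8.43 ± 3.74, Irf8 at 8.16 ± 2.85, Spi1 at 5.75 ± 3.66 and Nr1h3 at 1.68 ± 0.90 CPM per kilobase (SD, n = 6). Cebpb stood above Runx1 by more than their summed SDs, and each later neighbour in this order differed from the one before by less than that. Lengths are those of all annotated exons joined, so a gene read from a short isoform is understated.

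**Figure D1:**
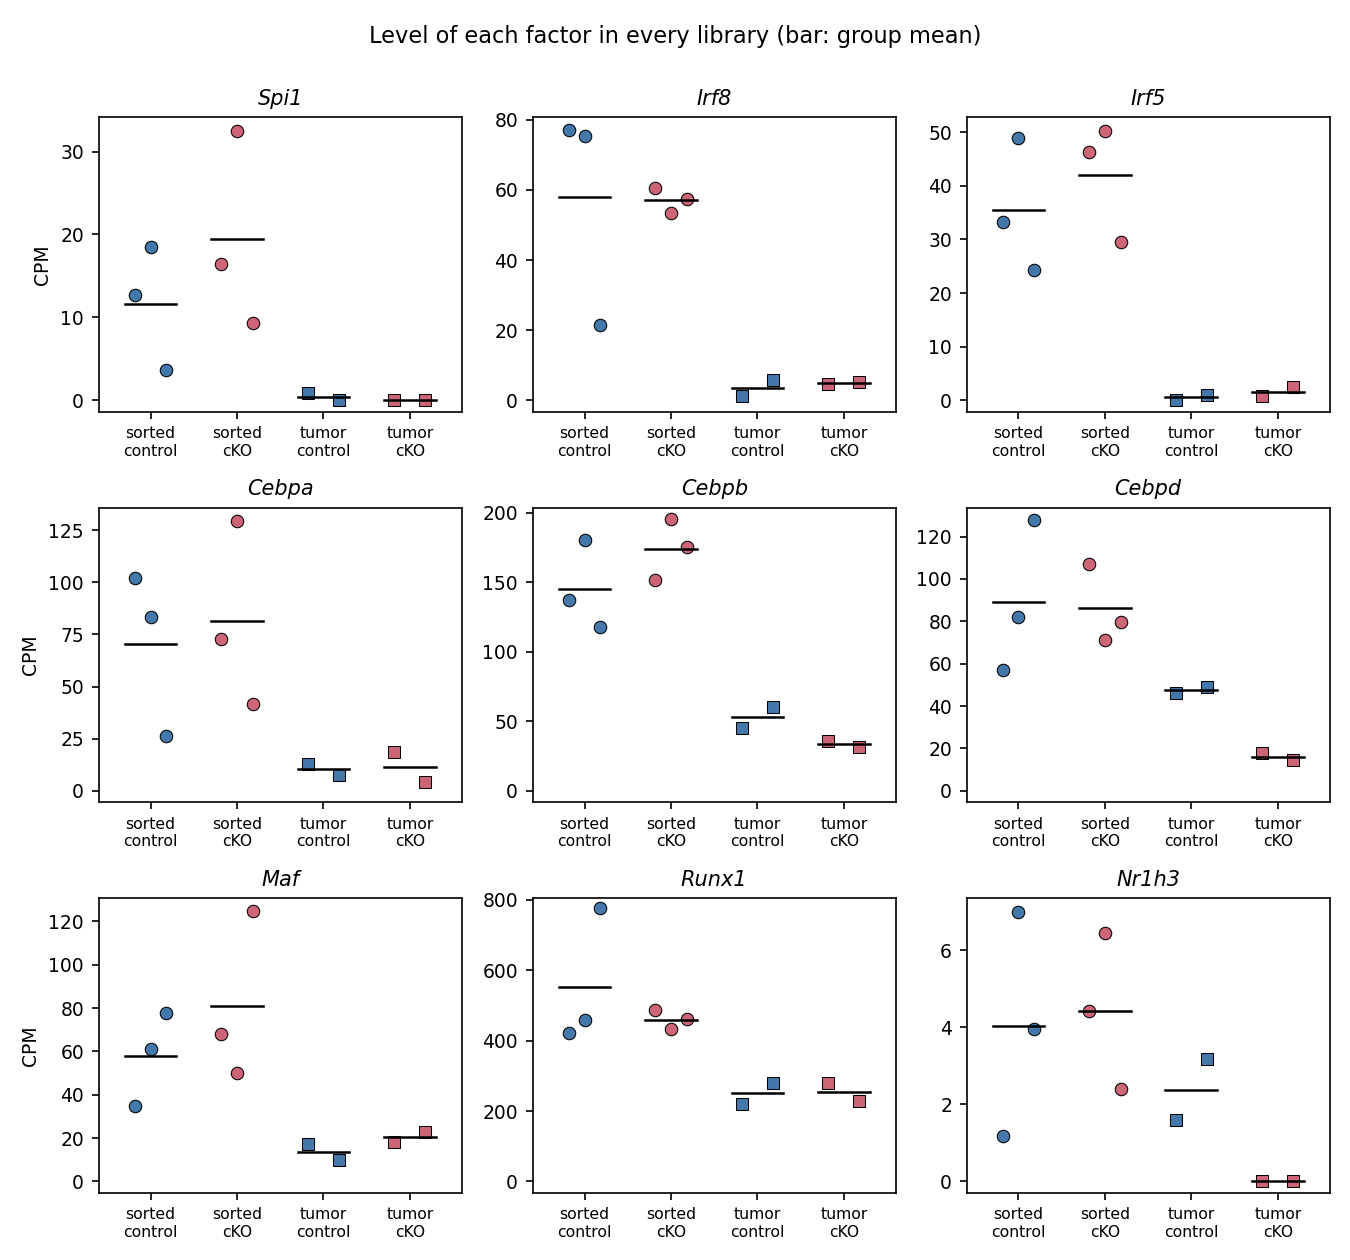
Level of each factor in CPM (linear axes from 0) in every library: circles are sorted macrophages, squares whole tumors, blue control, red cKO, and bars group means. The groups of sorted libraries overlap for all 9 factors, and Cebpd is at 46.2 and 49.2 CPM in control tumors against 17.9 and 14.4 CPM in cKO tumors.

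Of the ETS and IRF factors, Spi1 and Irf8 varied most over mice. Spi1 was at 12.6, 18.5 and 3.61 CPM in sorted controls (706, 720 and 775) and at 16.5, 32.5 and 9.30 CPM in sorted cKO cells (725, 746 and 867). The highest value, in cKO 746, was 9.01-fold above the lowest, in control 775, and the groups overlapped. The log2 difference of Spi1, cKO minus control on log2(CPM + 1), was 0.77 (SE 0.57, limma adjusted p = 0.9998), and it was 0.16 without control 775. Irf8 was at 77.0, 75.4 and 21.4 CPM in controls and at 60.6, 53.4 and 57.5 CPM in cKO cells. The cKO libraries lay close together, between control 775 and the other controls, and the group means were 57.9 ± 31.6 and 57.2 ± 3.58 CPM (SD, n = 3 each). The difference of Irf8 was 0.18 (SE 0.38, limma adjusted p = 0.9998), and -0.41 without control 775. Irf5, with a 2.07-fold range over the libraries, was at 33.3, 49.0 and 24.3 CPM in controls and 46.4, 50.3 and 29.6 CPM in cKO cells, with a difference of 0.26 (SE 0.35, limma adjusted p = 0.9998) that was 0.02 without control 775, 0.51 without control 720 and 0.05 with scaling to macrophage markers.

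Among the C/EBP factors, Cebpa had the widest range in sorted cells. It was at 102, 83.2 and 26.2 CPM in controls and at 73.0, 129 and 41.7 CPM in cKO cells, lowest in control 775 and next lowest in cKO 867. Its difference of 0.27 (SE 0.42, limma adjusted p = 0.9998) became -0.32 without control 775. Cebpb was the most even of the 3, at 137, 180.4 and 118 CPM in controls and 151, 195 and 176 CPM in cKO cells. Its groups overlapped because control 720 exceeded the cKO libraries 725 and 867, and its difference was 0.28 (SE 0.25, limma adjusted p = 0.9998). It was 0.14 without control 775, 0.45 without control 720 and 0.06 with scaling to macrophage markers. Cebpd was at 57.2, 82.1 and 128 CPM in controls and at 107, 71.3 and 79.7 CPM in cKO cells. Here control 775, the lowest library for Cebpa and Cebpb, was the highest. The difference of Cebpd was 0.01, with a 95% interval from -0.62 to 0.63, and its sign turned under 4 rescalings of the libraries.

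Maf was at 35.0, 61.3 and 77.5 CPM in sorted controls and at 67.9, 50.2 and 125 CPM in sorted cKO cells. The library of cKO 867, which was highest in Maf, also had the highest fibroblast, endothelial and monocyte marker sums (2260 CPM over 7 monocyte genes, against 361 to 879 CPM in the other sorted libraries). The part of those cells in the Maf value was not tested. The difference of Maf was 0.44 (SE 0.35, limma adjusted p = 0.9998), and it was 0.08 without cKO 867. Runx1 was at 421, 458 and 776 CPM in controls and at 486, 432 and 462 CPM in cKO cells. Apart from control 775, the Runx1 values lay within 421 to 486 CPM. Its difference of -0.21 (SE 0.27, limma adjusted p = 0.9998) became 0.07 without control 775. Nr1h3 was read at a low level, 1.18, 6.99 and 3.96 CPM in controls and 4.42, 6.45 and 2.38 CPM in cKO cells, which stands for 17.0 to 157 reads. Its interval was wide, from -1.30 to 1.75 around a log2 difference of 0.22.

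No factor passed the test between genotypes in sorted macrophages. With limma, 0 of the 9 had an adjusted p under 0.05, as for 0% of the 16304 genes tested, and 0 of the 9 had an unadjusted p under 0.05, against 2.63% of all genes. The groups overlapped for each of the 9, whereas they did not overlap for 7.24% of all genes. The estimates were positive for 8 of 9 factors and for 54.7% of all genes, with a median of 0.26 over the factors and 0.05 over all genes. When libraries were scaled to the macrophage markers, 6 of 9 were positive and the medians were 0.05 for the factors and -0.16 for all genes. The intervals were 1.06 log2 units wide for Cebpb and up to 3.05 for Nr1h3. Their variances borrow from all genes and not from 3 mice a group alone. Without the trend of the limma fit, the SE rose for every factor but Nr1h3. It went from 0.25 to 0.33 for Cebpb, from 0.42 to 0.64 for Cebpa and from 0.74 to 0.56 for Nr1h3.

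**Figure D2:**
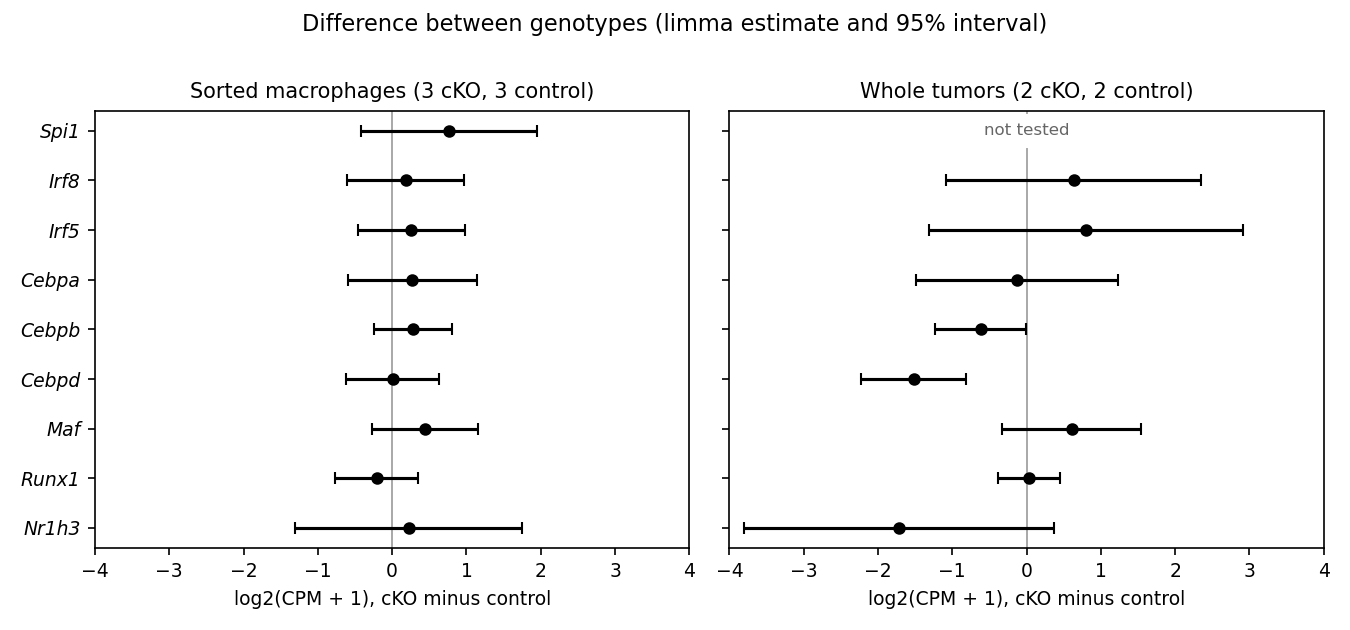
Difference in log2(CPM + 1), cKO minus control, for each factor in sorted macrophages (left) and whole tumors (right): points are limma estimates, bars 95% intervals. Every interval on the left spans 0, and on the right those of Cebpb and Cebpd lie below 0, with the upper end of Cebpb at -0.003. Spi1 was too low in tumors to be tested.

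The spread between sorted libraries ran along the macrophage content of each library for some factors and against it for others. The geometric mean of the macrophage markers (CPM + 1, without Lyz2) was 47.5 in control 775 and 83.9 to 118 in the other 5 libraries. Control 775 was the lowest library for 5 of the 9 factors, Spi1, Irf8, Irf5, Cebpa and Cebpb, and the highest for Cebpd and Runx1, against 19.4% and 9.95% of all genes that were lowest or highest there. Control 706, the shallowest library, was lowest for Maf, Cebpd, Runx1 and Nr1h3, as for 23.0% of all genes. After scaling to the markers, the ratio of the highest to the lowest library went from 9.01 to 3.64 for Spi1, from 3.59 to 1.59 for Irf8, from 4.95 to 2.22 for Cebpa and from 2.07 to 1.65 for Irf5. It went the other way for Runx1 (from 1.84 to 4.44), Cebpd (from 2.24 to 5.06), Maf (from 3.57 to 5.01), Nr1h3 (from 5.92 to 7.58) and Cebpb (from 1.66 to 1.94). In a bulk library, fewer macrophages and less RNA per macrophage cannot be told apart.

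**Figure D3:**
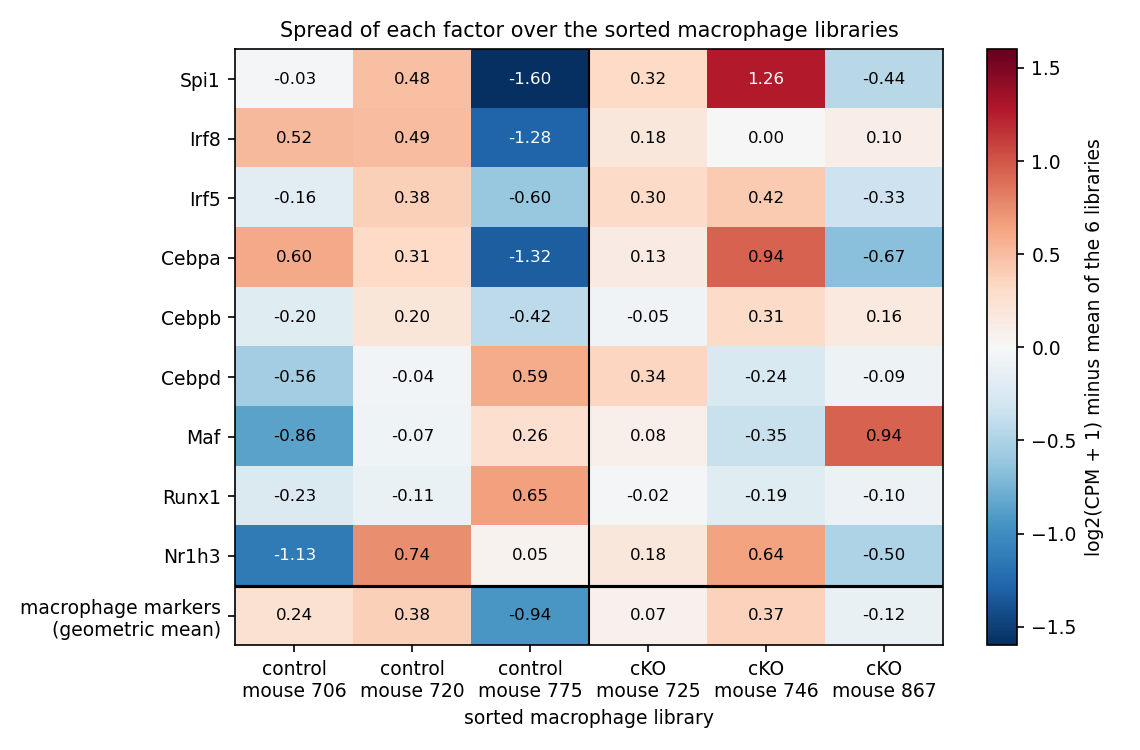
Deviation of each factor from its mean over the 6 sorted libraries, in log2(CPM + 1), with red above and blue below the mean; the bottom row is the geometric mean of the macrophage markers. In the column of control 775, Spi1, Irf8, Irf5, Cebpa and Cebpb are at their lowest together with the markers, while Cebpd and Runx1 are at their highest.

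Whole tumors carried little Spi1, Irf8, Irf5 and Nr1h3 RNA, and more of the other 5 factors. Spi1 was at 0.88 CPM in control 706 and listed at 0 in control 720 and both cKO tumors, so it was not tested. Irf8 was at 1.14 and 5.73 CPM in controls (706 and 720) and 4.66 and 5.11 CPM in cKO tumors (725 and 746), and Irf5 was listed at 0 and at 1.06 CPM in controls and was at 0.82 and 2.41 CPM in cKO tumors. Both overlapped between groups. Cebpa overlapped too, at 12.9 and 7.80 CPM in controls and 18.6 and 4.15 CPM in cKO tumors. Runx1 was almost level, at 220.0 and 280.3 CPM in controls and 280.3 and 229.6 CPM in cKO tumors, with a difference of 0.03 (SE 0.20, limma adjusted p = 0.987), whose sign turned under 3 rescalings. Per kilobase, Cebpb (28.8 ± 8.51 CPM) and Runx1 (21.0 ± 2.69) again led, within their spread of each other (SD, n = 4).

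Cebpd, an inducible C/EBP factor, showed the largest separation between tumor genotypes among the factors above 5 CPM, although it did not pass the adjusted test. It was at 46.2 and 49.2 CPM in control tumors and at 17.9 and 14.4 CPM in cKO tumors. Both cKO values were under both controls, and the means were 47.7 ± 2.11 and 16.1 ± 2.47 CPM (SD, n = 2 each). The log2 difference was -1.52 (SE 0.33, 95% interval -2.22 to -0.81, limma unadjusted p = 0.000314, adjusted p = 0.602), the 4th lowest p of 14630 genes. Over the alternatives run, the estimate ranged from -1.66 to -1.33 and the adjusted p from 0.270 to 0.965. The limma unadjusted p was 0.00821 without the trend and 0.00680 to 0.0125 with 1 tumor left out. Spidr, which overlaps Cebpd on the other strand, differed by 0.14 (SE 0.52, limma).

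Cebpb was also lower in both cKO tumors, by a smaller step. It was at 45.2 and 60.5 CPM in controls and at 35.9 and 31.6 CPM in cKO tumors. The log2 difference was -0.62 (SE 0.29, 95% interval -1.24 to -0.003, limma unadjusted p = 0.0490, adjusted p = 0.833). The limma unadjusted p of Cebpb rose to 0.144 without the trend, 0.0654 with scaling to macrophage markers, 0.231 without control 720, 0.10 without cKO 725 and 0.178 without cKO 746 (adjusted p from 0.764 to 0.965). The estimate was -0.41 without control 720. Its partner Peds1 differed by 0.18 (SE 0.35, limma). Markers of fibroblasts were also lower in sum, at 595 and 704 CPM in controls and 331 and 445 CPM in cKO tumors. None was listed at 0. By estimate 5 of the 6 were lower, as were 6344 of all 14630 genes. At an unadjusted p under 0.05 (limma), 3 of the 6 were lower, against 1.95% of all genes. Without overlap, 4 of the 6 were lower, against 14.3% of all genes. Monocyte markers summed to 229.9 and 184 CPM in controls and 179.0 and 179.7 CPM in cKO tumors, with 1 of the 5 tested lower at an unadjusted p under 0.05 and 1 of the 7 listed at 0 in cKO 725. The 9 neutrophil markers, of which 3 were listed, summed to 62.2 and 90.2 CPM in controls and 55.5 and 54.2 CPM in cKO tumors, nearly all from Ltf, which mammary epithelium also makes. Macrophage markers summed to 123 and 136 CPM in controls and 139 and 114 CPM in cKO tumors. The part of these cells in the Cebpd and Cebpb differences was not tested. When tumors were scaled to the macrophage markers, Cebpd differed by -1.47 and Cebpb by -0.57.

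Maf pointed the other way in tumors. It was at 17.0 and 9.82 CPM in controls and at 18.1 and 22.7 CPM in cKO tumors, higher in both, with a difference of 0.61 (SE 0.44, limma adjusted p = 0.871) that was 0.24 without control 720 and 0.97 without control 706. Nr1h3 was at 1.58 and 3.18 CPM (54.0 and 111 reads) in controls and listed at 0 in both cKO tumors, so no fold is given. Its fitted difference depended on the pseudocount, at -1.72 with 1 CPM, -4.55 with 0.1 and -0.55 with 5, and did not pass the test (limma adjusted p = 0.833). Being listed at 0 was common at this level: of 3293 genes at 1 to 3 CPM in control tumors, 14.5% were listed at 0 in both cKO tumors, and 14.8% of 3126 the other way round.

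With limma, 0 of the 8 factors tested in tumors had an adjusted p under 0.05, as for 0% of the 14630 genes. At an unadjusted p under 0.05 there were 2 of 8, Cebpd and Cebpb, both lower in cKO, against 5.85% of all genes in either direction and 1.95% lower. The count fell to 1 of those tested with scaling to macrophage markers and without control 720, cKO 725 or cKO 746, and rose to 3 without control 706 or with no filter. With 2 tumors a group, non-overlap is common: 3 of 8 factors (Cebpb, Cebpd and Nr1h3) were lower in both cKO tumors, against 14.3% of all genes, and Maf was higher, against 21.2%. Estimates were positive for 4 of the 8. Each table was fitted alone, so whether the cKO minus control difference of Cebpd in tumors (-1.52) departs from that in sorted cells (0.01) was not tested.

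Set against the whole tumor of the same mouse, the sorted cells were enriched most in Irf5, Spi1, Irf8 and Cebpa, an order that depends on the pseudocount. The values are log2 differences of CPM + 1, sorted minus tumor, over the 4 mice that gave both libraries, and are described without a test. Irf5 differed by 4.58 ± 0.49, Spi1 by 4.08 ± 0.91, Irf8 by 3.82 ± 0.92 and Cebpa by 3.18 ± 1.14 (SD, n = 4). The sizes of Spi1 and Irf5 rest on the pseudocount of 1 CPM, since Spi1 was listed at 0 in 3 of the 4 tumors and Irf5 in 1. Spi1 differed by 6.74 with a pseudocount of 0.1 and by 2.21 with 5, and Irf5 by 5.94 and 3.03. With 5, Irf8 (2.98) and Cebpa (2.74) stood above Spi1. Macrophage markers had a median of 4.42 with 1 CPM, and all genes 0.39. Irf8, for example, was at 77.0 against 1.14 CPM in mouse 706 and at 53.4 against 5.11 CPM in mouse 746, 67.4-fold and 10.5-fold. Cebpa went from 3.92-fold in mouse 725 to 31.2-fold in mouse 746.

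Cebpb, Maf, Cebpd and Runx1, all present in every tumor, differed less on average than these 4. Cebpb differed by 1.94 ± 0.49, Maf by 1.62 ± 0.71, Cebpd by 1.45 ± 1.10 and Runx1 by 0.83 ± 0.11 (SD, n = 4). The order did not hold in each mouse: in mouse 725, Cebpd (2.52) and Cebpb (2.05) stood above Cebpa (1.91). Nr1h3 differed by 1.51 ± 1.44, but it was listed at 0 in both cKO tumors, and the value was 3.06 with a pseudocount of 0.1 and 0.64, below the 0.82 of Runx1, with 5. In control 706 Nr1h3 was lower in the sorted cells than in the tumor (1.18 against 1.58 CPM), and in control 720 it was 2.20-fold higher. Runx1 was the most even, 1.63-fold to 1.91-fold higher in the sorted cells of every mouse. Cebpd differed by 0.30 and 0.73 in the controls and by 2.52 and 2.23 in the cKO mice. Its sorted values overlapped between genotypes and its tumor values did not. Cebpb was also higher in both cKO mice (2.05 and 2.59) than in both controls (1.58 and 1.56). So was Nr1h3 (2.44 and 2.90 against -0.24 and 0.93). Irf8 was lower in both cKO mice (3.44 and 3.15) than in both controls (5.19 and 3.50). How many of all genes split in this way was not computed. In total 5 of 9 factors (Irf5, Spi1, Irf8, Cebpa and Cebpb) were at least 2-fold higher in every mouse, as were 10.4% of 16221 genes. That count is on log2(CPM + 1), where Maf was at 0.99 in its lowest mouse. In CPM itself Maf was 2.05-fold to 6.24-fold higher in the sorted cells of the 4 mice, and it counts as a 6th factor with a pseudocount of 0.1 or without mouse 706. The median of the factors was 1.94.

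Other measures moved with this contrast. Protein-coding genes took 67.6% to 80.1% of sorted and 49.7% to 56.5% of tumor libraries, and scaling to them moved the median of all genes from 0.39 to -0.05 and the mean of Runx1 from 0.83 to 0.30. On that scale, 4 of 9 factors were at least 2-fold higher in every mouse, as were 6.55% of all genes. The epithelial keratins Krt8 (5.31-fold to 7.91-fold) and Krt18 (2.81-fold to 5.41-fold) were also at least 2-fold higher in the sorted cells of every mouse. They were the only 2 of 10 epithelial markers to be so, and the median of the 10 was -0.05. Cdh1 and Krt14 were higher in every mouse but by less than 2-fold in some. Krt5, Elf5 and Csn3 were lower in the sorted cells of every mouse. Reads of Krt8 may be shared with its listed pseudogene Krt8-ps, and the part of epithelial cells in the values of the factors was not tested. Sorted cells had been digested and tumors snap frozen, and the 11 immediate early and dissociation genes, such as Fos and Atf3, summed to 8669 to 13149 CPM in sorted cells against 213 to 323 CPM in tumors. Cebpb and Cebpd are themselves rapidly inducible, and the part of digestion in their values was not tested.

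**Figure D4:**
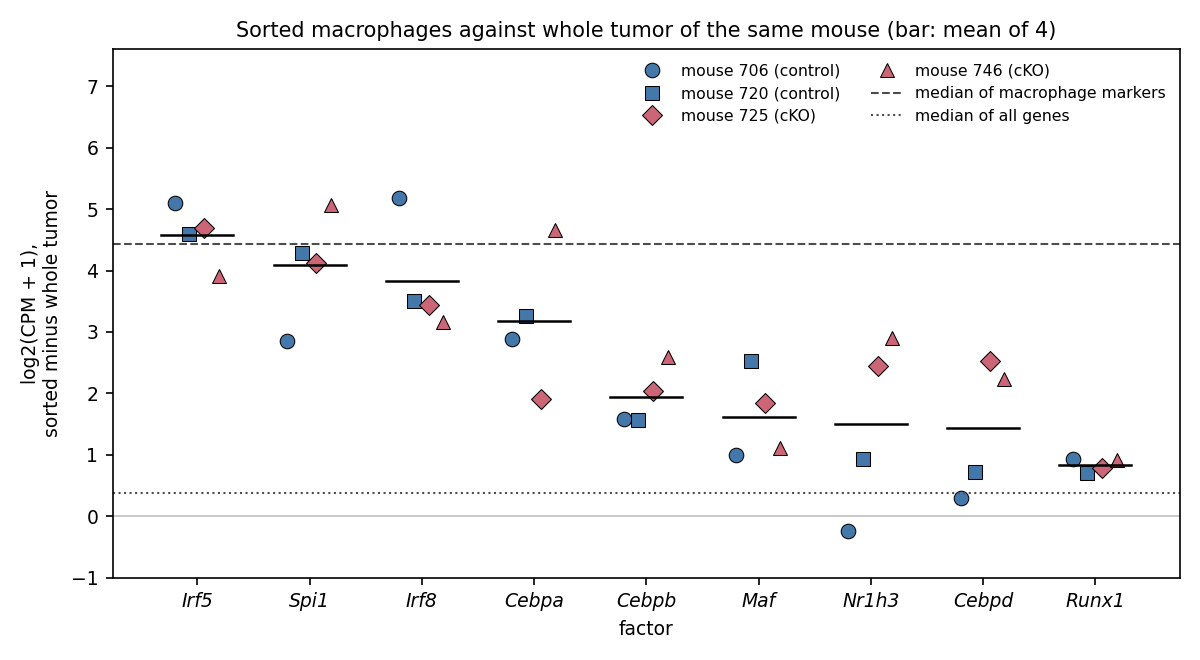
Difference in log2(CPM + 1) between the sorted macrophages and the whole tumor of the same mouse, for 4 mice (blue control, red cKO, bars means), with the medians of the macrophage markers (4.42, dashed) and of all genes (0.39, dotted). Irf5, Spi1 and Irf8 lie near the marker line, and Runx1 lies close to the line of all genes. The genotypes do not overlap for Cebpd, Cebpb and Nr1h3, higher in cKO mice, or for Irf8, lower in cKO mice.

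Relatives, partners and targets of the factors showed no call either. Of the ETS relatives 0 of 7 tested passed in sorted cells and 0 of 6 in tumors, and likewise 0 of 8 and 0 of 8 IRF relatives, 0 of 6 and 0 of 5 C/EBP relatives and antagonists, 0 of 6 and 0 of 6 MAF relatives, 0 of 3 and 0 of 4 RUNX relatives, 0 of 6 and 0 of 6 LXR relatives and corepressors, and 0 of 14 and 0 of 11 other myeloid factors. Median differences in sorted cells ran from -0.02 for the LXR group to 0.25 for the ETS relatives. Irf4, an IRF relative of alternatively activated macrophages, had the lowest p of these groups there, at 10.04 ± 6.68 CPM in controls and 31.8 ± 32.4 CPM in cKO cells (SD, n = 3), a log2 difference of 1.30 (SE 0.59, limma unadjusted p = 0.0382, adjusted p = 0.9998) with overlapping groups. Bach1, a repressor that pairs with small MAF proteins, differed by 0.47 (SE 0.26), and Maff, such a small MAF, by 0.61 (SE 0.34). Klf4 differed by 0.46 (SE 0.28) and Trib1, an adaptor for degradation of C/EBPα, by 0.31 (SE 0.29), none past the test. Of the others picked by the same rule, Egr2 (-0.55, SE 0.37), Irf2 (-0.53, SE 0.37), Runx2 (-0.21, SE 0.33) and Ncor1 (-0.15, SE 0.26) were lower. Ddit3 (0.60, SE 0.67), Nr1h2 (0.41, SE 0.41), Runx3 (0.38, SE 0.39), Elf4 (0.31, SE 0.30) and Etv3 (0.30, SE 0.28) were higher, again none past the test.

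Targets were tested in the same fits. In sorted cells 0 of 14 PU.1 and IRF8 targets passed (median 0.24), 0 of 4 IRF5 targets (0.88), 0 of 8 C/EBP targets (0.22) and 0 of 13 LXR targets (-0.004), and in tumors 0 of 13 (0.13), 0 of 1 (0.08), 0 of 6 (-0.005) and 0 of 12 (0.18). Of the IRF5 targets, Tnf was at 54.0 to 85.8 CPM in sorted cells and differed by -0.08 (SE 0.29). Il6 differed by 1.62 (SE 0.93), and ran from 0 in a control to 44.9 CPM in a cKO library. The remaining IRF5 targets reached at most 4.45 and 8.45 CPM, so the median of 0.88 rests on genes of low level. The C/EBP target Ptges, the inducible prostaglandin E synthase, was at 13.8 to 18.7 CPM in sorted controls and 2.98 to 8.11 CPM in sorted cKO cells, lower in all 3 cKO libraries (log2 difference -1.51, SE 0.55, limma unadjusted p = 0.0114, adjusted p = 0.9998). In tumors Ptges was at 26.2 and 30.0 CPM in controls and 23.6 and 19.0 CPM in cKO (-0.39, SE 0.35). Arg1, the arginase of alternatively activated macrophages, was at 70.9 ± 56.7 and 29.6 ± 11.3 CPM in sorted cells (SD, n = 3), with overlapping groups and a difference of -1.02 (SE 0.44, limma adjusted p = 0.9998), and differed by -0.89 (SE 0.51) in tumors. The LXR target Scd2, a fatty acid desaturase, was at 427 to 511 CPM in sorted controls and 323 to 356 CPM in cKO cells (-0.48, SE 0.24, limma adjusted p = 0.9998) but was level in tumors (0.04, SE 0.16). Lpl, the other LXR target picked, differed by 0.38 (SE 0.27) in sorted cells, with overlapping groups. Ncf1, a subunit of the phagocyte oxidase, differed by 0.54 (SE 0.30) and Csf2ra, a GM-CSF receptor chain, by 0.59 (SE 0.41) in sorted cells. There, 3 of the 89 relatives, partners and targets tested (3.37%) had a limma unadjusted p under 0.05: Irf4, Ptges and Arg1. The share over all genes was 2.63%, and groups did not overlap for 7.24% of all genes. In tumors, 3 of the 78 relatives, partners and targets tested (3.85%) had an unadjusted p under 0.05, against 5.85% of all genes, and are named for that after their values were seen: Rxra (1.07, SE 0.36), the partner of LXR, Mafg (0.87, SE 0.38), a small MAF, and Tlr4 (0.46, SE 0.21), with limma adjusted p of 0.819, 0.833 and 0.833.

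For 3 factors the genes of most similar pattern were sought over the 10 libraries, as the root mean square difference of log2(CPM + 1) after centring each table, among 11640 genes tested in both tables. Nearest to Spi1 were Laptm5 (0.27), Apoe (0.28) and Psmb8 (0.33), where Spi1 itself varied by 0.73 around its means. Laptm5 is a lysosomal protein of blood cells and Apoe a lipid carrier made by macrophages, and the nearest of the other 8 factors was Cebpa (0.52). Nearest to Irf8, which varied by 0.63, were Bicra (0.25), Ctnnbip1 (0.27) and Ccdc59 (0.28), with Irf5 the nearest factor at 0.43. Nearest to Maf, which varied by 0.50, were Atg9a (0.18), Gpc6 (0.21) and Rbm28 (0.22). The nearest factor, Runx1, lay at 0.53, farther than Maf itself varied. The measure depends on the size of changes as well as their direction, so it does not show whether another factor moved with Maf. Spi1 and Maf lay 1.01 apart. These are descriptions over libraries that share mice and macrophage content.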

How the data were processed

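Ribosomal RNA was depleted before library preparation, per the labels' protocols, and STAR 2.7.8a, Partek and the build GRCm38 (mm10) were named per the submitters' processing notes. The deposited values are log2 values: 2 to the power of each value, minus 1, sums to 1e+06 CPM in every library, so each is log2(CPM + 1), although the design had assumed linear values. Depth was inferred from the most frequent low value, taken as 1 read. Within 0.1 read, 82.3% to 88.1% of low sorted and 82.9% to 86.2% of low tumor values were whole, too few for a count test. Positions in the tables are not GRCm38, so those printed come from GENCODE vM21 by gene identifier.

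The 2 tables were analysed one by one in R 4.3.3, using limma 3.58.1 (lmFit and trended eBayes, two-sided, threshold 0.05 after Benjamini-Hochberg adjustment over every gene averaging at least 1 CPM), a procedure also tested on simulated data. Sorted cells and tumors were normalized separately and are compared without a test. The labels name no partners for size-matched tumors, and cKO and control share no mouse, so no pairing entered those fits. Genes beyond the factors were named by rule: at most 2 a list, those of lowest p in sorted cells among genes at 5 CPM or more. Rxra, Mafg, Tlr4 and the named epithelial markers fall outside that rule and were named after their values were seen. The factors and the lists were chosen with earlier results of these data known. Marker lists (macrophage, monocyte, neutrophil, dendritic, B, T and NK cell, epithelial, fibroblast, endothelial) had 0 members past the threshold in either table. Alternatives were pseudocounts of 0.1 and 5, a mean of at least 5 CPM or no filter, 4 rescalings (TMM, median ratio, protein-coding sum, macrophage markers), eBayes without trend, array weights, the 4 mice of both tables, and each library left out.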

Additional observations from a re-analysis of the deposited data

How the results depend on the processing

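Under every alternative run, 0 of the 9 factors passed in sorted cells and 0 of those tested in tumors (limma). Genes with an unadjusted p under 0.05 numbered 245 to 636 in sorted cells (428 as reported) and 321 to 1025 in tumors (856), and at most 3 of all genes passed the adjusted test, without control 775. Signs near 0 turned. In sorted cells, Irf8 became -0.0205 with scaling to macrophage markers and -0.41 with the 4 mice of both tables, where Runx1 became 0.0615. Cebpd became -0.0163 with TMM, -0.0219 with median ratios, -0.0575 with protein-coding scaling and -0.21 with macrophage markers. In tumors, Runx1 became -0.0297, -0.0517 and -0.0868 with the first 3 of these scalings. The cause was not tested. With each library left out, sorted differences ran from -0.41 to 0.49 for Irf8, -0.32 to 0.67 for Cebpa, -0.27 to 0.30 for Cebpd, -0.38 to 0.0651 for Runx1 and -0.29 to 0.65 for Nr1h3. Tumor differences ran from -0.19 to 1.46 for Irf8, -1.10 to 0.83 for Cebpa and -0.14 to 0.20 for Runx1. Of the 5 factors at least 2-fold above tumor in every mouse, the count was 4 to 6 under other settings, and 8 with no replicate block, where the means of all sorted and all tumor libraries are compared in place of pairing by mouse. Only 2 tumors a group limit the tumor intervals. By counting error only, a gene listed at 0 allows up to 0.208 CPM in the shallowest sorted library. Yet of genes at 1 to 3 CPM in the other sorted libraries, 16.4% (control 775) to 43.2% (control 706) were listed at 0 in a sorted library. For tumors it was 23.8% (cKO 725) to 31.7% (control 720).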
